A study of Mus musculus with 12 samples.

Results

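The transcripts described here belong to 10 genes of the unfolded protein response (UPR) of the endoplasmic reticulum (ER), which are Hspa5, Hsp90b1, Calr, Sdf2l1, Dnajb9, Pdia4, Pdia6, Herpud1, Edem1 and Xbp1. They were chosen by name from the 24347 gene entries of each library, and all 10 were expressed well enough to be tested among 11924 genes. Earlier results of these data were known when they were chosen, so counts among the 10 are descriptive only. RNA-seq of total RNA was performed in HT22 cells, an immortalized mouse hippocampal neuronal line, in 4 groups of 3 biological replicates, 12 libraries in all. The siControl group received a control siRNA by liposome-mediated delivery and normal iron, the siNCOA4 group received siRNA against Ncoa4 and normal iron, and the siControl+DFO and siNCOA4+DFO groups received the same siRNAs plus desferrioxamine (DFO), an iron chelator, at 100 µM for 24 h. NCOA4 is the cargo receptor that brings ferritin to the lysosome so that its stored iron is released. The study asked how loss of this iron source and restriction of imported iron act on HT22 cells, alone and together. All 4 groups were transfected, no untransfected group was used here, and effects of the Ncoa4 siRNA on transcripts other than Ncoa4 cannot be told apart from effects of losing Ncoa4.

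The ER folds secreted and membrane proteins. When unfolded proteins build up in its lumen, 3 membrane sensors respond. IRE1 splices the mRNA of the transcription factor XBP1, ATF6 is cut in the Golgi to release a transcription factor, and PERK phosphorylates the translation factor eIF2α and thereby raises translation of ATF4. The XBP1 and ATF6 arms are known for inducing chaperones, folding enzymes and the components of ER-associated degradation (ERAD), and the ATF4 arm for inducing amino acid and stress genes such as Ddit3. Among the genes described here, Hspa5 encodes BiP, the main HSP70-type chaperone of the ER lumen, Hsp90b1 its HSP90-type counterpart, and Calr the calcium-binding lectin chaperone calreticulin. Dnajb9 and Sdf2l1 encode partners of BiP, Pdia4 and Pdia6 are protein disulfide isomerases, and Herpud1 and Edem1 act in ERAD. Xbp1 encodes the transcription factor itself, and gene-level values do not separate its spliced from its unspliced mRNA.

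The values are FPKM, that is sequenced fragments corrected for gene length and for library size. They hold no read counts, so no counting interval can be given, and relative depth recovered from the steps of low values spanned 0.928 to 1.41 times that of siControl replicate 1. Ncoa4 itself was lower in each library that received its siRNA. It was at 6.46, 6.19 and 6.02 FPKM in siControl and 0.770, 0.952 and 0.891 in siNCOA4, and at 8.70, 8.31 and 7.52 in siControl+DFO and 0.850, 1.29 and 1.57 in siNCOA4+DFO, with log2 fold changes of -2.71 (adjusted p = 1.25e-05) and -2.67 (adjusted p = 2.83e-05). Small RNA genes took 37.8 to 41.0% of the summed FPKM in siControl, 36.2 to 40.6% in siNCOA4, 42.1 to 45.9% in siControl+DFO and 47.9 to 52.2% in siNCOA4+DFO. Of 9 neuron markers only Tubb3 reached a mean of 1 FPKM in any group, and Prox1 was at 0 in all 12 libraries, so the neuronal label is not borne out by the defining markers. The summed FPKM of 5 astrocyte markers was 36.4 to 46.0 in siControl, 22.5 to 27.0 in siNCOA4, 3.18 to 5.42 in siControl+DFO and 6.95 to 15.1 in siNCOA4+DFO, most of it from Slc1a3. Another marker of that list, Aldh1l1, went the other way, with means of 0.324, 0.811, 0.678 and 2.50 FPKM in the same order, and was called higher than siControl in all 3 other groups. The sum of 5 microglia markers was 10.1 to 11.8, 3.79 to 5.67, 0.985 to 1.68 and 0.457 to 2.01, most of it from Tmem119, with P2ry12 at 0 throughout. The part of these markers in the results below was not tested. In bulk RNA, fewer cells of a type and less RNA per cell cannot be told apart.

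Promoters of the 10 genes were read first, since UPR transcription factors are known to act through short elements near the start of transcription. The ER stress element (ERSE) is CCAAT, any 9 bases and CCACG. A compact form, ERSE-II, is ATTGG, any 1 base and CCACG, and the UPR element (UPRE) was searched as TGACGTGA and as TGACGTGG. The 250 bases before each RefSeq start (GRCm38.p6) were searched on both strands, and all 10 genes had such a sequence. Only exact matches were taken, so an element that departs from these letters was not found. ERSE was found upstream of Hspa5, Hsp90b1, Calr and Pdia6, that is 4 of 10 genes, against 0.13% of 27025 genes with a promoter and 0.178% of the 8996 of them that were tested. ERSE-II was found upstream of Herpud1 alone among the 10, against 0.037% of all genes. TGACGTGA was found upstream of Hspa5 alone, against 0.411% of all genes, and TGACGTGG upstream of none of the 10, against 0.603%. The ends of ERSE are common letters when searched alone, in part overlapping ERSE itself. CCAAT was upstream of 9 of the 10, 37.5% of all genes and 41.7% of those tested. CCACG was upstream of 8 of the 10, 31% of all genes and 47.2% of those tested. These genes are textbook UPR targets, some of which served to define ERSE, and a match describes letters and not binding.

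The matches are shown with their surroundings, 5′ to 3′ on the strand of the gene, with capitals for the fixed letters of each element. Hspa5 is on the plus strand, with its UPRE at chr2:34771928-34771945 and its ERSE at chr2:34772020-34772048. Hsp90b1 has a pair of ERSE in opposite orientations at chr10:86705523-86705666 on the minus strand. Calr (chr8:84847065-84847103, minus strand) carries the element reversed, while Pdia6 (chr12:17266481-17266519, plus strand) carries it forward and Herpud1 (chr8:94386367-94386397, plus strand) carries ERSE-II. Pdia4 (chr6:47813573-47813735, minus strand) had no exact match to these elements. It is shown for contrast because it had the largest change of the 10 with Ncoa4 siRNA, with capitals for its 3 CCAAT boxes on either strand.
Hspa5 UPRE: agcaaTGACGTGAgttgc
Hspa5 ERSE: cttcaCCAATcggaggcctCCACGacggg
Hsp90b1: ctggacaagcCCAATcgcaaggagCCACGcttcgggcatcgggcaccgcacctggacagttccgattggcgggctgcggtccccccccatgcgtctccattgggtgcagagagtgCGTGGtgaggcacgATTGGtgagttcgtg
Calr: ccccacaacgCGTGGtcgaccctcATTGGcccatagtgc
Pdia6: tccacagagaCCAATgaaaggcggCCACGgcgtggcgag
Herpud1: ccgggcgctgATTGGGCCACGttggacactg
Pdia4: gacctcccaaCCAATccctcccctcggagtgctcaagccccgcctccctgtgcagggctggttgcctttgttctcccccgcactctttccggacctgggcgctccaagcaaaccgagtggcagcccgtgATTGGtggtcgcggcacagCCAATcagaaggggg

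**Figure D1:**
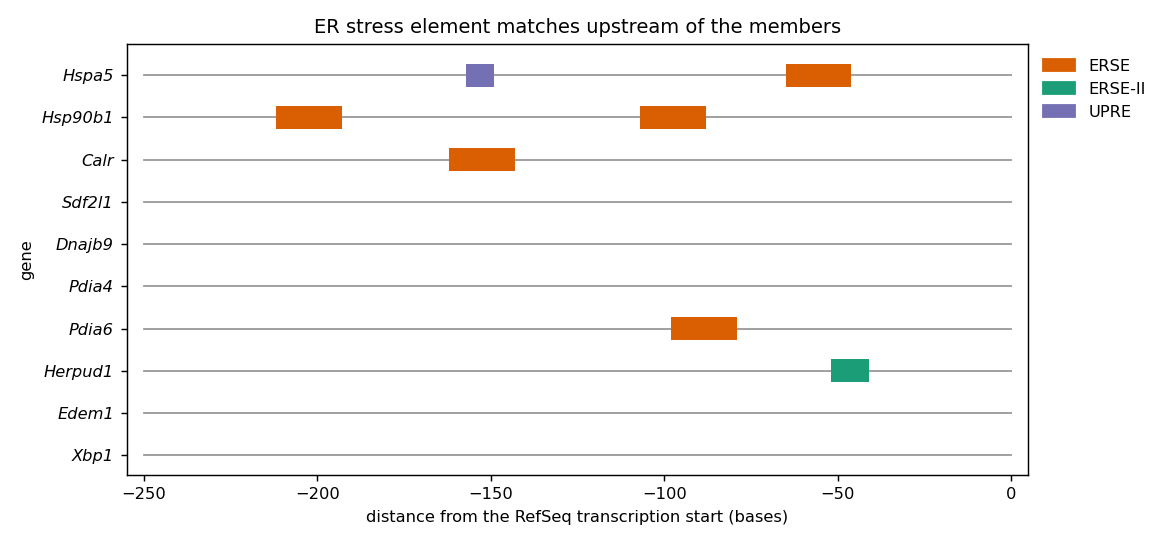
Position of ERSE (orange), ERSE-II (green) and UPRE (purple) matches in the 250 bases before the RefSeq start of each of the 10 genes, with distance from the start in bases on the x axis and 1 line per gene. Hspa5, Hsp90b1, Calr, Pdia6 and Herpud1 hold an exact match, and Sdf2l1, Dnajb9, Pdia4, Edem1 and Xbp1 hold none. The window of Dnajb9 lies inside its GENCODE gene.

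The abundant ER lumenal chaperones led the order of levels in siControl cells. Mean FPKM was 637 ± 5.55 (SD, n = 3) for Hsp90b1, 542 ± 15.2 for Calr and 390 ± 16.1 for Hspa5, which placed these 3 genes above 98.5% or more of the 11924 genes tested. The disulfide isomerases followed, Pdia6 at 127 ± 8.12 and Pdia4 at 111 ± 7.11 FPKM. The regulator and the ERAD genes were lower again, Xbp1 at 32.3 ± 1.47, Edem1 at 24.6 ± 1.69 and Herpud1 at 24.2 ± 1.88, with Sdf2l1 at 25.2 ± 3.53. The neighbours Sdf2l1, Edem1 and Herpud1 did not differ beyond their spread. Dnajb9 was the lowest of the 10 at 7.12 ± 0.671 FPKM, above 37.7% of the genes tested. Summed over the 10 genes, each siControl library held 1901 to 1951 FPKM, each siNCOA4 library 1680 to 1766, each siControl+DFO library 3597 to 3925 and each siNCOA4+DFO library 2536 to 3117. These 4 ranges did not overlap, and Hspa5 gave most of the difference between siControl+DFO and siControl. The FPKM of all genes together also differed, and the sums of the 10 genes were not corrected for this. That total was 615784 to 627826 in siControl and 565558 to 599095 in siNCOA4. It was 676428 to 723077 in siControl+DFO and 691486 to 737313 in siNCOA4+DFO.

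**Figure D2:**
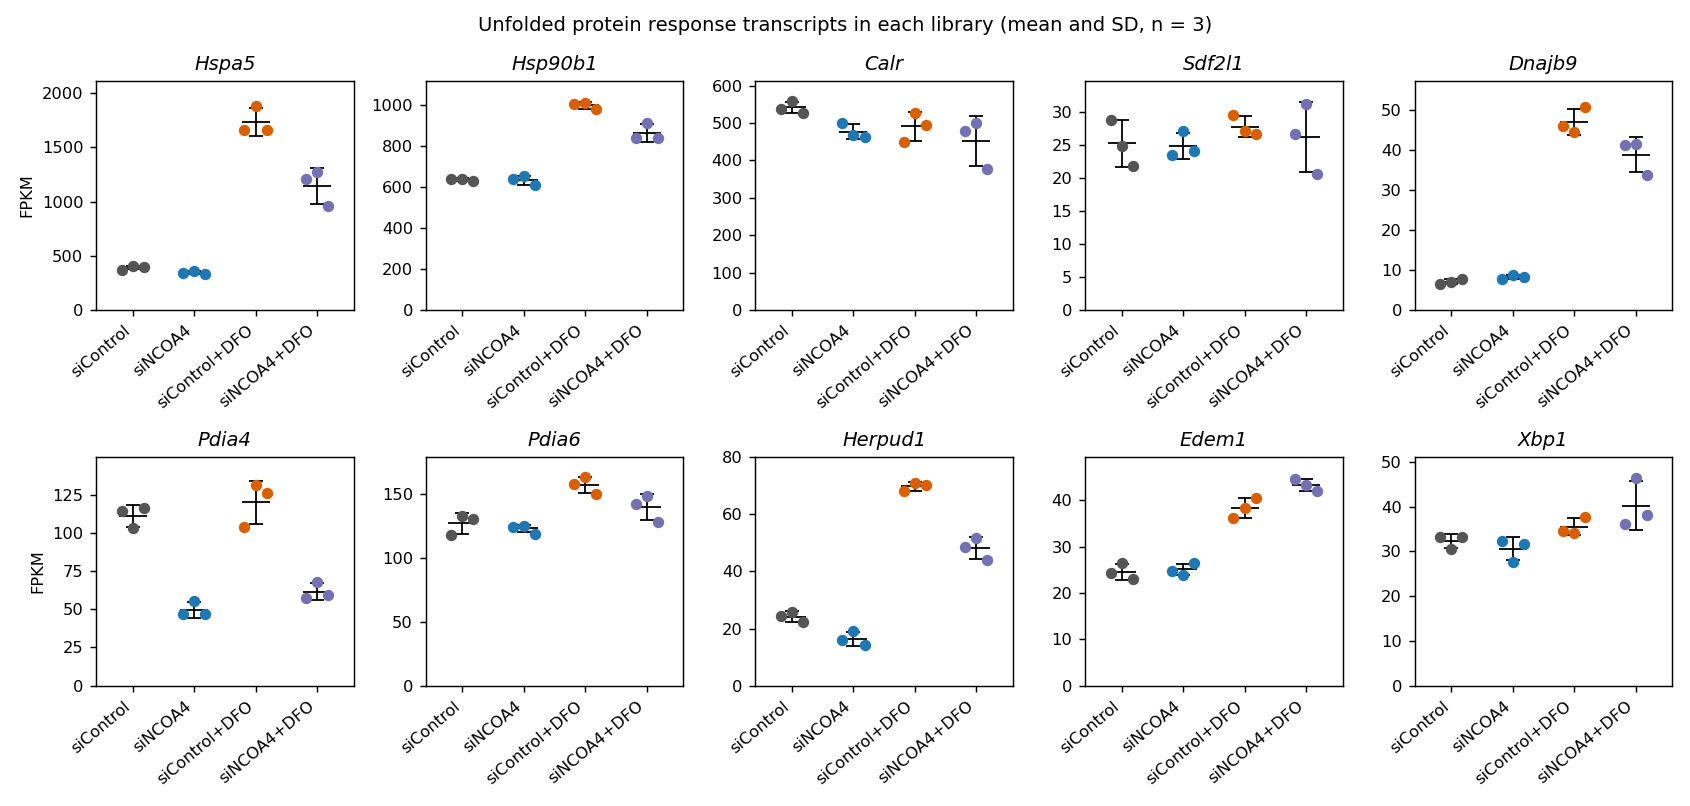
FPKM of the 10 genes in each of the 12 libraries (y axis, starting at 0, a separate scale per gene) by group (x axis), with dots for replicates and bars for mean and SD (n = 3). Hspa5 sat between 1662 and 1878 FPKM in siControl+DFO and between 955 and 1270 in siNCOA4+DFO, while Pdia4 was lower in both Ncoa4 siRNA groups.

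The first comparison asked what DFO alone did to these transcripts. Of the 10, 6 rose and none fell at an adjusted p below 0.05 (limma, with Benjamini-Hochberg adjustment across the 11924 genes), against 27.7% of all genes tested that rose and 25.7% that fell. With a fold change above 2 as well, 3 rose, which were Hspa5, Dnajb9 and Herpud1, against 11.1% of all genes. At an unadjusted p below 0.05 the count was also 6. For this and the later unadjusted counts the share of all genes was not computed, so they are descriptive only. The median log2 fold change of the 10 was 0.47, and that of all genes was -0.01. Libraries of the 2 groups did not overlap for 7 genes that were higher and 1, Calr, that was lower, against 31.1% and 29.6% of all genes.

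Among the lumenal chaperones the response was graded. Hspa5 (GRCm38 chr2:34771970-34777547, plus strand) was at 372, 402 and 397 FPKM in siControl and at 1662, 1878 and 1662 in siControl+DFO. Each DFO library was far above each control library, a 4.44-fold rise with a log2 fold change of 2.15 (SE 0.11, adjusted p = 2.49e-08). Hsp90b1 (chr10:86690209-86705509, minus strand) went from 641, 639 and 631 to 1008, 1009 and 981 FPKM. Its groups were equally well apart, but the rise was 1.57-fold, a log2 fold change of 0.65 (SE 0.08, adjusted p = 2.76e-05). Of the 75-base windows of Hsp90b1 transcripts, 6.73% were also found in overlapping annotated transcripts, 1 of which, 1810014B01Rik, is antisense. Calr (chr8:84841850-84846934, minus strand) was at 538, 558 and 528 FPKM without and 450, 528 and 496 with DFO. The highest DFO value lay just under the lowest control value, and the log2 fold change of -0.14 (95% interval -0.38 to 0.09, adjusted p = 0.286) did not pass the test. Calr thus did not pass in either direction, and its promoter holds an ERSE as do those of Hspa5 and Hsp90b1.

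The partners of BiP also differed from each other. Dnajb9 (chr12:44205559-44210326, minus strand), which encodes the J-domain cochaperone ERdj4, was at 6.46, 7.11 and 7.80 FPKM in siControl and 46.1, 44.7 and 50.9 in siControl+DFO. This was the largest relative rise of the 10, 6.56-fold, a log2 fold change of 2.71 (SE 0.11, adjusted p = 3.04e-09), from the lowest starting level. Of its 75-base windows 2.55% were shared with Gm6568. Sdf2l1 (chr16:17130138-17132383, minus strand) was at 28.8, 24.8 and 21.8 FPKM without and 29.5, 27.0 and 26.6 with DFO. These libraries overlapped, and its log2 fold change was 0.15 (95% interval -0.16 to 0.46, adjusted p = 0.407).

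The disulfide isomerases moved little with DFO. Pdia6 (chr12:17266545-17284770, plus strand) was at 118, 133 and 130 FPKM in siControl and 158, 163 and 150 in siControl+DFO. It rose 1.24-fold without overlap between the groups, a log2 fold change of 0.30 (SE 0.07, adjusted p = 0.00441), the smallest rise that passed. Exons of Atp6v1c2 overlap Pdia6 on the other strand, and whether the counting used strand is not given in the sources used here. Pdia4 (chr6:47796141-47813430, minus strand) was at 114, 103 and 116 FPKM without and 104, 131 and 126 with DFO. Its groups overlapped, with a log2 fold change of 0.11 (95% interval -0.12 to 0.34, adjusted p = 0.387).

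Both ERAD genes rose with DFO. Herpud1 (chr8:94386438-94395377, plus strand), a membrane component that helps assemble the ERAD ubiquitin ligase complex, was at 24.4, 25.9 and 22.2 FPKM in siControl and 68.1, 71.1 and 70.2 in siControl+DFO. The rise was 2.88-fold, a log2 fold change of 1.53 (SE 0.11, adjusted p = 2.24e-07). Edem1 (chr6:108828641-108859356, plus strand), which delivers misfolded glycoproteins to degradation, went from 24.3, 26.4 and 23.0 to 36.2, 38.4 and 40.5 FPKM. Its 1.56-fold rise was close in size to that of Hsp90b1, with a log2 fold change of 0.64 (SE 0.08, adjusted p = 2e-05). Xbp1 (chr11:5520659-5525893, plus strand) was at 33.2, 30.6 and 33.1 FPKM without and 34.5, 34.2 and 37.7 with DFO. Its groups did not overlap, yet total Xbp1 mRNA did not pass the test (log2 fold change 0.13, 95% interval -0.08 to 0.35, adjusted p = 0.274).

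**Figure D3:**
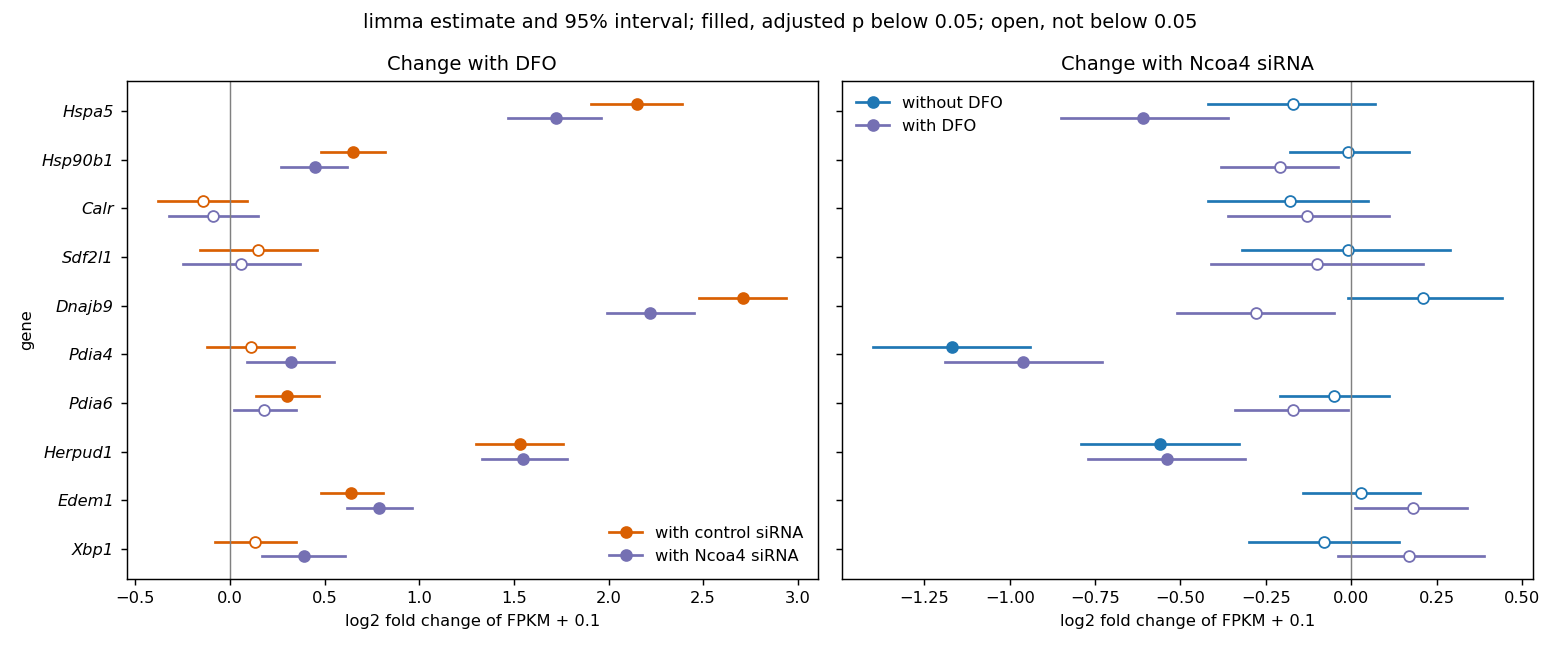
Log2 fold change of FPKM + 0.1 with its 95% interval (x axis, limma) for each of the 10 genes, for DFO with control or Ncoa4 siRNA (left) and for Ncoa4 siRNA without or with DFO (right), with filled points for an adjusted p below 0.05. Dnajb9, Hspa5 and Herpud1 lie farthest right on the left side, and Pdia4 lies farthest left on the right side, at -1.17 without and -0.96 with DFO.

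The next comparison asked what loss of Ncoa4 did at normal iron. Only Pdia4 and Herpud1 passed the test, both lower, so that 0 of the 10 rose and 2 fell, against 4.52% and 7.21% of all genes tested. At an unadjusted p below 0.05 the count in limma was also 2. Pdia4 was at 114, 103 and 116 FPKM in siControl and 46.6, 55.2 and 46.7 in siNCOA4. No siNCOA4 library came near the siControl level, and the 2.24-fold fall was a log2 fold change of -1.17 (SE 0.10, adjusted p = 3.87e-05), the only one of the 10 beyond a fold of 2, against 0.973% of all genes that fell so far. Herpud1 was at 15.9, 19.0 and 14.3 FPKM in siNCOA4, all below the siControl values of 22.2 to 25.9. The 1.48-fold fall was a log2 fold change of -0.56 (SE 0.11, adjusted p = 0.00519).

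The other 8 transcripts did not pass in siNCOA4 cells, and their log2 fold changes ran from -0.18 for Calr to 0.21 for Dnajb9. Hspa5 was at 342, 360 and 336 FPKM, below all siControl libraries, with a log2 fold change of -0.17 (95% interval -0.42 to 0.07, adjusted p = 0.357). Calr was at 500, 468 and 463 FPKM, also below all siControl libraries, with an adjusted p of 0.311. Dnajb9 was at 7.85, 8.72 and 8.24 FPKM, above all siControl libraries, with an adjusted p of 0.22. In all, 1 gene was higher and 4 were lower without overlap, while 14.9% and 17.6% of all genes were. Hsp90b1, Sdf2l1, Pdia6, Edem1 and Xbp1 overlapped between the groups, with log2 fold changes of -0.01, -0.01, -0.05, 0.03 and -0.08.

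Ncoa4 siRNA was then compared with control siRNA in DFO-treated cells. Its group means come from other libraries than those of the comparison at normal iron. Both comparisons share the siRNA and the spread pooled over all 12 libraries, so they are not independent. Pdia4, Hspa5 and Herpud1 fell and none of the 10 rose, against 10.2% of all genes that fell and 6.22% that rose. None of the 3 was beyond a fold of 2, against 1.01% of all genes that fell so far. Pdia4 was at 104, 131 and 126 FPKM in siControl+DFO and 57.6, 67.8 and 59.5 in siNCOA4+DFO. Its 1.95-fold fall was a log2 fold change of -0.96 (SE 0.10, adjusted p = 0.000222), so that Pdia4 was lower in each of the 6 libraries with Ncoa4 siRNA than in any of the 6 libraries without. Herpud1 was at 48.6, 51.8 and 44.0 FPKM, below the 68.1 to 71.1 of siControl+DFO, with a log2 fold change of -0.54 (SE 0.11, adjusted p = 0.00544), close to its fall at normal iron. Hspa5 was at 1208, 1270 and 955 FPKM against 1662 to 1878, a 1.52-fold fall with a log2 fold change of -0.61 (SE 0.11, adjusted p = 0.00398). Replicate 3 of siNCOA4+DFO had the lowest Hspa5 of its group and the lowest relative depth of all libraries. It also had the highest share of FPKM in small RNA genes, 52.2%. Of the 10 genes, only Pdia4 and Xbp1 were not at their group's lowest value in this library. Without it the log2 fold change of Hspa5 was -0.48 (adjusted p = 0.00921).

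At an unadjusted p below 0.05 the count was 7, with no share of all genes to set beside it. Of the genes that did not pass after adjustment, Hsp90b1, Dnajb9, Pdia6 and Edem1 were also fully apart between the DFO groups. Hsp90b1 was at 841, 915 and 838 FPKM, below the DFO controls, a log2 fold change of -0.21 (adjusted p = 0.0934). Dnajb9 was at 41.4, 41.5 and 33.9 FPKM, likewise below, with a difference of -0.28 (adjusted p = 0.0874). Pdia6 at 142, 148 and 128 FPKM had -0.17 (adjusted p = 0.134). Edem1 went the other way, at 44.7, 43.3 and 42.1 FPKM, or 0.18 on the log2 scale (adjusted p = 0.13), and passed as higher under quantile normalization (0.30, adjusted p = 0.0224). In this comparison 6 of the 10 were lower without overlap, against 20.1% of all genes, and 1 was higher, against 14.7%. Calr at 479, 501 and 376, Sdf2l1 at 26.6, 31.2 and 20.6 and Xbp1 at 36, 46.4 and 38.2 FPKM overlapped with their DFO controls. The siNCOA4+DFO group also had the highest share of FPKM in small RNA genes, whose part in these differences was not tested. The study reported lower cell viability with both treatments together, but not with either alone. The part of viability in these differences was not tested either.

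Dnajb9, Hspa5 and Herpud1 also led the rise with DFO in cells that had received Ncoa4 siRNA. Compared with siNCOA4, 7 of the 10 rose and none fell, against 23.1% of all genes that rose and 19.6% that fell. The count at an unadjusted p below 0.05 was 8, with no share of all genes to set beside it. The log2 fold changes were 2.22 for Dnajb9 (adjusted p = 3.79e-08), 1.72 for Hspa5 (adjusted p = 3.69e-07) and 1.55 for Herpud1 (adjusted p = 4.65e-07), and these 3 were beyond a fold of 2, against 7.59% of all genes. Edem1 followed at 0.79 (adjusted p = 7.21e-06), Hsp90b1 at 0.45 (adjusted p = 0.000738) and Xbp1 at 0.39 (adjusted p = 0.00756). Pdia4 rose by 0.32 (adjusted p = 0.0278), a call that was lost, with an adjusted p of 0.112, without siNCOA4+DFO replicate 2, and also without siNCOA4 replicate 1 (0.0943) or 3 (0.0951), under quantile normalization (0.0587) and with a prior without a trend (0.0512). Pdia6 at 0.18 did not pass (adjusted p = 0.0668), but did without siNCOA4+DFO replicate 3 (0.0197) or siControl replicate 1 (0.0458), and under quantile normalization (0.24, adjusted p = 0.00624).

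Relative to siControl, the combined treatment left 6 of the 10 higher and 1 lower, against 25.4% and 23.4% of all genes. Hspa5 and Dnajb9 were beyond a fold of 2, against 9.24% of all genes, and Herpud1 at 1.99-fold was just short of it. Hspa5 at 1.54, Dnajb9 at 2.43, Herpud1 at 0.99, Edem1 at 0.82 and Hsp90b1 at 0.44 on the log2 scale were higher, with adjusted p-values of at most 0.000654. Xbp1 was higher by 0.31 (adjusted p = 0.0219), which did not hold without siControl replicate 2 (adjusted p = 0.0776) or siNCOA4+DFO replicate 2 (adjusted p = 0.0991), nor in a fit restricted to these groups (adjusted p = 0.0543). Pdia4 was the 1 gene that was lower, by -0.85 on the log2 scale (adjusted p = 3.35e-05), so its level in siNCOA4+DFO was below that in siControl. Calr at -0.27 did not pass (adjusted p = 0.0557) and passed without siNCOA4+DFO replicate 2 (-0.35, adjusted p = 0.0285) and with a robust prior (adjusted p = 0.0455). Pdia6 at 0.13 did not pass (adjusted p = 0.162) and passed without siNCOA4+DFO replicate 3 (0.19, adjusted p = 0.0491) and under quantile normalization (0.27, adjusted p = 0.00285).

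Whether the effect of Ncoa4 siRNA differed with and without DFO was tested by the interaction. In limma, 0 of the 10 genes passed after adjustment, against 2.1% of all genes. With no share of all genes to set beside them, 2 had an unadjusted p below 0.05. These were Dnajb9 at -0.50 (95% interval -0.82 to -0.17, unadjusted p = 0.00592, adjusted p = 0.103) and Hspa5 at -0.43 (95% interval -0.78 to -0.09, unadjusted p = 0.0176, adjusted p = 0.169). A larger fall of Hspa5 in DFO-treated cells than at normal iron was therefore not established. For Herpud1 the interaction was 0.03 (95% interval -0.30 to 0.35) and for Pdia4 0.20 (95% interval -0.12 to 0.53). Quantile normalization gave 1 call, Hspa5, at -0.60 with an adjusted p of 0.0493.

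The wider UPR was described from lists of other genes. These lists too were chosen with earlier results of these data known, so their counts are descriptive only. Of the 8 genes for sensors and their processing enzymes, 3 rose and 2 fell with DFO, beside 27.7% and 25.7% of all genes tested. The median log2 fold change of the list was 0.03. All 3 that rose, Atf6, Ern1 and Eif2ak3, did so beyond a fold of 2, beside 11.1% of all genes. Of the 2 that fell, 1 was beyond a fold of 2, beside 925 of all 11924 genes. Atf6 rose from 7.85 to 25.5 mean FPKM (log2 fold change 1.69, adjusted p = 3.52e-08) and Ern1, which encodes the sensor IRE1α, from 9.95 to 29.6 (1.56, adjusted p = 7.62e-06). Eif2ak3, which encodes the sensor PERK, rose from 12.3 to 31.5 (1.34, adjusted p = 9.76e-07). Atf6b fell from 26.7 to 15.7 (-0.75, adjusted p = 0.000773). Creb3l2, a transcription factor of the ATF6 type, fell from 25.5 to 9.43 (-1.42, adjusted p = 1.42e-06). It was also lower in siNCOA4 at 15.1 FPKM (-0.74, adjusted p = 0.00249), and its interaction passed the test (0.92, adjusted p = 0.0204). Mbtps1, the protease that cuts ATF6, was lower with Ncoa4 siRNA at normal iron, at 35.5 against 44.1 FPKM (-0.32, adjusted p = 0.0281, up to 0.115 when 1 library was left out). In DFO-treated cells Ncoa4 siRNA left Mbtps1 at 35.7 against 46.6 FPKM (-0.38, adjusted p = 0.00859). In the same cells Eif2ak3 was at 23.8 against 31.5 (-0.40, adjusted p = 0.03), while Atf6b was higher, at 21.5 against 15.7 (0.46, adjusted p = 0.0473). For Eif2ak3 and Atf6b leaving out 1 library took the adjusted p up to 0.116 and 0.144.

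Genes for ER folding and quality control outside the 10 changed in both directions. Over 5 lists holding the sensors, other chaperones, oxidative folding, ERAD and translocation, 26 of 73 tested genes rose and 13 fell with DFO, beside 27.7% and 25.7% of all genes tested, with a median log2 fold change of 0.12 beside -0.01. Other chaperones and cochaperones had 4 of 12 that rose and 2 that fell, among them Hspa13 (0.59, adjusted p = 0.000867) and Manf (0.55, adjusted p = 0.00175) up and Sdf2, the relative of Sdf2l1, down (-0.61, adjusted p = 0.0105). Oxidative folding genes had 5 of 13 up and 2 down. Ero1l, the oxidase that supplies disulfide bonds to the isomerases, rose from 12.3 to 189 FPKM (3.94, adjusted p = 6.34e-10), the largest change on that list, and Ero1lb (1.15, adjusted p = 0.00311) and the isomerase P4hb (0.55, adjusted p = 0.000293) rose less. Of the ERAD genes 10 of 21 rose and 2 fell, and the rises of Herpud2 (1.16, adjusted p = 9.75e-06), the ubiquitin ligase Syvn1 (0.77, adjusted p = 0.000232) and its adaptor Sel1l (0.74, adjusted p = 0.000107) were smaller than that of Herpud1. Translocation and secretion genes had 4 of 19 up and 5 down, with the COPII coat genes Sec24d (-0.72, adjusted p = 5.24e-06) and Sec31a (-0.58, adjusted p = 0.000142) down and the ER retrieval receptor gene Kdelr3 up (0.60, adjusted p = 0.00632).

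**Figure D4:**
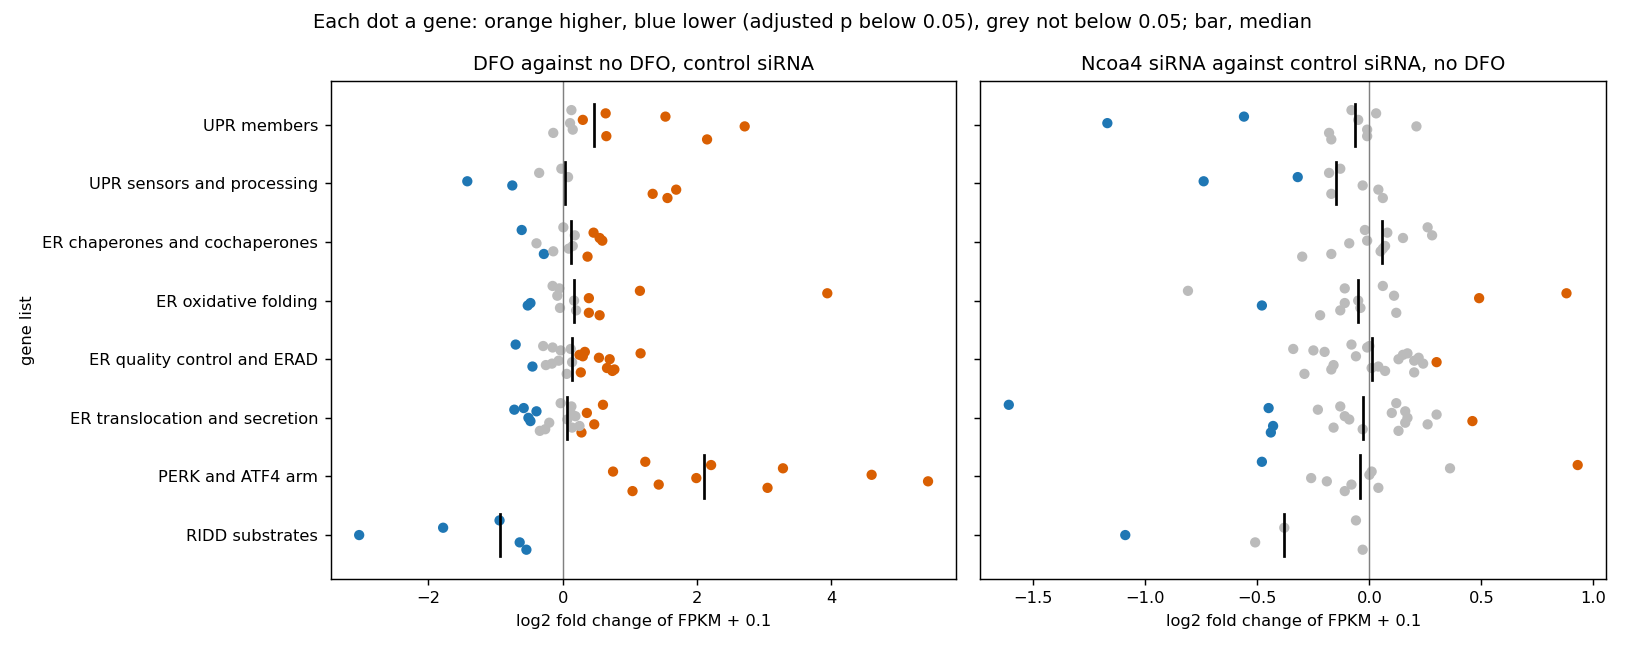
Log2 fold change of FPKM + 0.1 (x axis) of each tested gene by list (y axis), for DFO with control siRNA (left) and Ncoa4 siRNA without DFO (right), with orange for higher and blue for lower at an adjusted p below 0.05, grey for the rest and a bar for the median. The 10 genes (top line) have a median of 0.47 with DFO, the PERK and ATF4 genes 2.1 and the RIDD substrates -0.94.

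The PERK and ATF4 arm had larger changes than the 10 genes, a difference between lists that was not tested. All 10 genes on that list rose with DFO, beside 27.7% of all genes tested, with a median log2 fold change of 2.1. Of the 10, 9 rose beyond a fold of 2, beside 11.1% of all genes. The list was chosen with earlier results of these data known, so its counts are descriptive only. Ppp1r15a, a phosphatase subunit that reverses eIF2α phosphorylation, rose from 7.18 to 315 FPKM (5.44, adjusted p = 4.78e-09) and Sesn2, a stress-induced regulator of mTORC1, from 6.79 to 66.8 (3.28, adjusted p = 8.62e-09). Atf3 had a listed value of 0 in each siControl library, against 3.37, 1.43 and 2.58 FPKM in siControl+DFO. Several of these genes are also induced by other stresses, so the list is not specific to the ER. Under Ncoa4 siRNA at normal iron, Nupr1 was higher (0.93, adjusted p = 0.00116) and Cebpb lower (-0.48, adjusted p = 0.0294, up to 0.112 when 1 library was left out). In DFO-treated cells Ppp1r15a was the 1 gene of that list that was lower, at 152 against 315 FPKM (-1.08, adjusted p = 0.0078), and Nupr1 was the 1 gene whose interaction passed (-1.25, adjusted p = 0.00971).

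Known substrates of regulated IRE1-dependent decay (RIDD), mRNAs that activated IRE1 can cleave, were lower with DFO for all 5 tested of the 6 listed. This stood beside 25.7% of all genes tested, and the median log2 fold change of the list was -0.94. The list was also chosen with earlier results of these data known, so its count is descriptive only. Pdgfrb fell from 25.7 to 3.07 FPKM (-3.03, adjusted p = 1.1e-07), Col6a1 from 90.4 to 26.6 (-1.78, adjusted p = 5.6e-07) and Sparc from 462 to 241 (-0.94, adjusted p = 4.11e-06). These genes encode a growth factor receptor and matrix proteins and are regulated in other ways as well, and IRE1 activity was not measured here. With Ncoa4 siRNA at normal iron Pdgfrb was lower, at 12 FPKM (-1.09, adjusted p = 0.00362), and its interaction passed (1.67, adjusted p = 0.0125).

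At normal iron Ncoa4 siRNA changed 11 of the 73 other ER genes, 4 higher and 7 lower, near the 4.52% and 7.21% of all genes tested, with a median log2 fold change of -0.01. Kdelr3 had the largest of these changes, from 18.8 to 6.11 FPKM (-1.61, adjusted p = 6.97e-05), and in DFO-treated cells it was at 9.91 against 29.0 (-1.51, adjusted p = 0.000155). Kdelr3, which returns escaped lumenal proteins such as BiP to the ER, thus was lower in both comparisons, as was Pdia4. The signal peptidase subunit gene Spcs1 was higher in both (0.46, adjusted p = 0.00752, and 0.66, adjusted p = 0.00099). Other changes at normal iron included Ero1l (0.88, adjusted p = 0.00074), Tmx1 (0.49, adjusted p = 0.0156, up to 0.0686 when 1 library was left out), Erp29 (-0.48, adjusted p = 0.00555) and Sec31a (-0.45, adjusted p = 0.00663). Ero1l was the oxidative folding gene whose interaction passed (-0.84, adjusted p = 0.0322). In DFO-treated cells 6 of the 73 were higher and 9 lower, beside 6.22% and 10.2% of all genes, with Tmx1 (0.48, adjusted p = 0.0144, up to 0.0577 when 1 library was left out) and Prdx4 (0.39, adjusted p = 0.0309, up to 0.0966) higher and Ssr2 lower (-0.52, adjusted p = 0.0097).

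The profiles of the 10 genes over the 12 libraries fell into a set that followed Hspa5 and a set that did not. Pearson's r of log2 values with Hspa5 was 0.99 for Hsp90b1, 0.98 for Dnajb9, 0.98 for Herpud1, 0.91 for Pdia6 and 0.90 for Edem1, and 0.65 for Xbp1, 0.40 for Sdf2l1, 0.37 for Pdia4 and -0.22 for Calr. These correlations describe libraries that cluster by group, and the DFO groups set most of their size. Among 10826 genes with a mean of at least 1 FPKM, the profiles most like that of Hspa5 were Plk2 (0.998), Epha2 (0.997), Whamm (0.996), Rrm2 (0.996) and Jun (0.996). Those most like Pdia4 were Ifrd2 (0.979), Ankfy1 (0.971), Ncoa4 itself (0.971), Ctgf (0.969) and Esd (0.965).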

How the data were processed

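RNA-seq was performed on 12 libraries of HT22 cells, in 4 groups taken from the sample labels. The authors deposited FPKM per gene, 1 table per library. The submitters' processing notes name Trimmomatic 0.33, FastQC, HISAT2 2.1.0, featureCounts, edgeR and the build mm10, and the annotation behind the FPKM is not given in the sources used here. Of 24347 entries, 4 sharing a name were left out. Log2(FPKM + 0.1) was fitted for the 11924 genes with at least 0.5 FPKM in at least 3 libraries, with 1 mean per group over all 12 libraries, in limma 3.58.1 (R 4.3.3) with a trended empirical Bayes prior (8 residual and 4.07 prior degrees of freedom), two-sided, with Benjamini-Hochberg adjustment within each comparison. The procedure was checked on simulated data. Log2 fold changes are on the FPKM + 0.1 scale. Genes with an adjusted p below 0.05 were called, and those with a fold above 2, the study's rule, were counted apart. FPKM are not counts, so no count test was run. P-values weigh a difference between group means against the spread between biological replicates, pooled over the 4 groups and moderated by the prior. For a single gene, an exact permutation test of 3 against 3 libraries cannot go below 0.1 and was not used.

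The 10 genes and the lists were chosen with earlier results of these data known. In each list, up to 3 genes with the largest change among those called in a comparison were named. The 5 genes with the highest correlation were named for Hspa5 and for Pdia4. Interactions of list genes and the DFO changes of Eif2ak3 and Atf6b were added after values were seen. Gene positions and shared 75-base windows came from GENCODE on GRCm38, promoters and their build from RefSeq (GRCm38.p6). GENCODE starts Hspa5, Hsp90b1, Calr, Dnajb9 and Pdia6 upstream of the RefSeq start used here. The whole Dnajb9 window lies inside its GENCODE gene, so bases before that GENCODE start were not searched. Same-numbered replicates did not deviate together (r -0.13 to 0.12, median -0.01), so no replicate block was used. Alternatives were other pseudocounts, filters, scalings and priors, a replicate block, fits restricted to the groups compared, and leaving out each library.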

Additional observations from a re-analysis of the deposited data

How the results depend on the processing

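Of the log2 fold changes of named genes under the alternatives, 2315 kept their direction and side of the threshold, 95 lost and 12 gained a call, and 30 changed sign, none of which passed the test. The number of the 10 genes called stayed at 6 for DFO against siControl and at 2 for siNCOA4 against siControl under every alternative. Replicate numbers did not pair the samples, each library correlating best with its own number in 4 of 18 cases, and with the replicate as a block 6, 2, 7, 3, 7 and 0 of the 10 were called for siControl+DFO and siNCOA4 against siControl, siNCOA4+DFO against siControl, siControl+DFO and siNCOA4, and the interaction, as without the block. Leaving out 1 library gave 0 to 1 genes beyond a fold of 2 for siNCOA4+DFO against siControl+DFO, the 1 being Pdia4 without siControl+DFO replicate 1 (-1.06) or siNCOA4+DFO replicate 2 (-1.03). Quantile normalization gave 1 call for the interaction where there was none, Hspa5, and the cause was not tested. It also shifted the median of all genes with DFO to -0.08.

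Changes of sign concerned values near 0. For siNCOA4 against siControl, Hsp90b1 came to 0.0032 under median-of-ratios scaling, and quantile normalization gave 0.12 for Hsp90b1, 0.03 for Sdf2l1 and 0.03 for Pdia6. Quantile normalization gave Calr 0.08 against siControl+DFO and Sdf2l1 -0.01 against siNCOA4 in siNCOA4+DFO cells. The interaction of Ncoa4 was -0.10 with a pseudocount of 1 and -0.12 under quantile normalization. When 1 library was left out, the range for siNCOA4 against siControl was -0.03 to 0.02 for Hsp90b1, -0.11 to 0.09 for Sdf2l1 and -0.02 to 0.08 for Edem1. For siNCOA4+DFO, Sdf2l1 ranged from -0.09 to 0.21 against siControl, -0.24 to 0.06 against siControl+DFO and -0.08 to 0.22 against siNCOA4, and Calr from -0.17 to 0.04 against siNCOA4. The interaction ranged from -0.02 to 0.18 for Calr, -0.22 to 0.07 for Sdf2l1, -0.07 to 0.14 for Herpud1 and -0.14 to 0.27 for Ncoa4. The interaction was not fitted on compared groups alone, since it uses all groups. FPKM without counts set no detection limit.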

Other observations

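Genes outside the 10 with an ERSE or ERSE-II in the 250 bases before their start were looked up after the members' promoters had been seen. Of 18 such genes tested, 6 were higher and 1 was lower in siControl+DFO than in siControl (median log2 fold change 0.17), beside 27.7% and 25.7% of all genes tested. Those that rose were the mannosyltransferase gene Alg12 (0.78, adjusted p = 0.00374), the lectin chaperone gene Canx (0.46, adjusted p = 0.000159), Syvn1 (0.77, adjusted p = 0.000232), Lrif1 (1.49, adjusted p = 8.67e-06), Rbm39 (0.89, adjusted p = 3.31e-07) and Pan2 (0.46, adjusted p = 0.00189). The lower gene was Lgalsl (-0.30, adjusted p = 0.04). Creld2 (0.18, adjusted p = 0.352) and Dnajc3 (-0.14, adjusted p = 0.183), both known as ER stress genes, did not pass. In siNCOA4 against siControl 3 of the 18 were higher and none was lower, beside 4.52% and 7.21% of all genes, and in siNCOA4+DFO against siControl+DFO 1 was higher, Dnajc3 (0.32, adjusted p = 0.0226, up to 0.0759 under other settings), and 1 was lower, Rbm39 (-0.31, adjusted p = 0.00708).

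Other motifs were searched in the same windows. The amino acid response element core TGATGCAA was upstream of Herpud1 alone among the 10, against 0.918% of all genes and 0.745% of those tested. The hypoxia response core ACGTG was upstream of 5 of the 10, against 18.5% of all genes and 25.6% of those tested. Its match lay inside the UPRE in Hspa5 and overlapped the ERSE-II in Herpud1.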
